A study of Rattus norvegicus with 9 samples.

Results

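Endothelial cells line the inside of blood and lymph vessels and of the heart chambers, and a set of 33 genes that mark them was followed through 9 RNA-seq libraries of cultured neonatal rat heart cells. The genes were listed by symbol: surface and junction proteins of endothelium, its receptors and ligands, and proteins it secretes. The list was made with earlier results of these data known, so the share that changed is not that of a blind choice. Of the 33, 29 were listed in at least 1 library and 27 had enough counts to be tested, out of 14607 genes listed and 11761 tested in all. Ptprb, Mmrn1, Mmrn2 and She were listed in no library and were not analysed here, and Robo4 and Gpihbp1 were set aside by the filter on low counts. The question asked of the set was whether its members rise together, as a larger share of endothelial cells would make them do.

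All libraries came from primary neonatal rat cardiomyocytes (NRCMs), prepared by enzyme digestion of whole hearts of SD rats (Sprague Dawley) 1 to 2 days old. Cells were exposed to a lentivirus for 16 h and kept for another 48 h in medium with 10% fetal bovine serum. The group lenti-NC (genotype label WT) received the vector control, lenti-TCF7L2 (label TCF7L2 overexpression) a virus carrying TCF7L2 WT, and lenti-shTCF7L2 (label TCF7L2 knock down) a virus with a short hairpin RNA that targets it. This transcription factor is a DNA-binding partner of β-catenin in the Wnt pathway. Each group held 3 libraries, and lentivirus and culture conditions were shared by all 3 groups. The labels name neither the promoter that drives the insert nor its species, and do not state that replicates were separate cultures, so p-values measure only the spread between these samples.

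Endothelial cells hold each other through VE-cadherin and claudin-5, keep quiescent through the Tie receptors and the BMP9 receptor pair ALK1 and endoglin, and regulate vessel tone with nitric oxide. In the heart they form the dense capillary bed between the cardiomyocytes and, as endocardium, the lining of the chambers. A cardiomyocyte preparation made by digestion keeps some of these cells. In RNA from whole cultures, more cells of a type and more RNA per cell cannot be told apart.

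Library totals ran from 15085922 to 16478295 expected counts. CPM below is counts relative to library size with TMM scaling, and differences are on the log2 scale from edgeR's quasi-likelihood test, adjusted over all tested genes, with a change called at an adjusted p under 0.05. Tcf7l2, the targeted gene, stood at 40.0, 36.4 and 34.1 CPM in lenti-NC, 142, 206 and 85.6 in lenti-TCF7L2 and 25.6, 30.3 and 25.9 in lenti-shTCF7L2 libraries. Its difference from lenti-NC passed with lenti-TCF7L2 (1.97, adjusted p = 8.46e-04) and did not pass with lenti-shTCF7L2 (-0.43, adjusted p = 0.511), where all 3 libraries nevertheless lay below all 3 controls. The lenti-TCF7L2 replicates, of which replicate 3 stood apart from the others, were less alike (lowest pairwise Pearson's r of log2 CPM across genes 0.948) than those of lenti-NC (0.994) or lenti-shTCF7L2 (0.995). For the set as a whole and for some members, results are also given without replicate 3.

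The label of the set was checked with Pecam1, Cdh5 and Emcn. Pecam1 (Entrez gene 29583) encodes CD31, an adhesion protein at endothelial borders, and had 100, 127 and 133 expected counts in lenti-NC, 532, 805 and 930 in lenti-TCF7L2 and 105, 105 and 123 in lenti-shTCF7L2 libraries. Cdh5 (Entrez gene 307618), VE-cadherin, had 92, 106 and 111 counts in lenti-NC, 372, 703 and 227 in lenti-TCF7L2 and 122, 134 and 125 in lenti-shTCF7L2 libraries. Emcn (Entrez gene 295490), the sialomucin endomucin of capillary and venous endothelium, had 15, 19 and 19 counts in lenti-NC, 133, 154 and 248 in lenti-TCF7L2 and 10, 16 and 19 in lenti-shTCF7L2 libraries. All 3 markers were therefore present in each of the 9 libraries, at low levels in the controls, and the 3 lenti-TCF7L2 libraries were the highest for each.

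RefSeq promoters (GRCr8, 250 bases before to 50 after a gene's start) were at hand for 15 of the 27 tested genes. Those of 4 genes that stand for the different behaviours in the set are shown: Emcn and Tie1, which rose steeply with lenti-TCF7L2, Eng, the most abundant member, which rose slightly, and S1pr1, which fell. Emcn lies on the plus strand at chr2:228564289-228564588, Tie1 on the minus strand at chr5:137304932-137305231, Eng on the plus strand at chr3:36332029-36332328 and S1pr1 on the minus strand at chr2:206314021-206314320. Each is written 5′ to 3′ along its gene. Capitals mark matches, on either strand, to 3 motifs: the TCF/LEF core CTTTGA, its variant CTTTGT, which read from the other strand is also the SOX core, and the ETS core AGGAAG.
Emcn: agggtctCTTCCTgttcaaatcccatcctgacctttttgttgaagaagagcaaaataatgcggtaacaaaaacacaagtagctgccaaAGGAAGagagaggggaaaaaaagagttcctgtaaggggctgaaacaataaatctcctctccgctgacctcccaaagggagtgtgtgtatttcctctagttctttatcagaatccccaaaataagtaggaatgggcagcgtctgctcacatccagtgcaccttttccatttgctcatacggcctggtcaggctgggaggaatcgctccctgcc
Tie1: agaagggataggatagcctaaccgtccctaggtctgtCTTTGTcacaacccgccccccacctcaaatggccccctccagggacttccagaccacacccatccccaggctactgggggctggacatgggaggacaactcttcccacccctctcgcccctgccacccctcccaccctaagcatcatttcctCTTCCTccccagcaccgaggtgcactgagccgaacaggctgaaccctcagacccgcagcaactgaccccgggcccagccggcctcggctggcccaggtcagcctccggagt
Eng: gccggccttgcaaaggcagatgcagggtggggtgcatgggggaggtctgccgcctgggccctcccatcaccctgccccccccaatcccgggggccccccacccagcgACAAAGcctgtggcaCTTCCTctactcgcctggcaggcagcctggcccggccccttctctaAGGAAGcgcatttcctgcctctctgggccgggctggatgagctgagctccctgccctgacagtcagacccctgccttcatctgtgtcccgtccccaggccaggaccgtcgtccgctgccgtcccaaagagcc
S1pr1: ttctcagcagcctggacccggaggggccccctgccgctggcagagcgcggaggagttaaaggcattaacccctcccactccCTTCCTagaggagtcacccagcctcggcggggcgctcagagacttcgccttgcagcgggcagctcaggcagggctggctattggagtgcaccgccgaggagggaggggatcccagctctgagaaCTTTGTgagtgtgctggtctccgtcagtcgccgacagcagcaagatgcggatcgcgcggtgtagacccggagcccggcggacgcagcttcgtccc

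The S1pr1 promoter held CTTTGT beginning 45 bases before the start site and the Tie1 promoter held it 213 bases before. In the Eng promoter it began, on the other strand, 143 bases before the start site, and the Emcn promoter held none of these TCF/LEF cores. CTTTGA was found in the promoters of 0 of the 15 genes and in 16.1% of all 33469 promoters at hand. Members were counted per gene, a match in any of its promoters sufficing, and the background per promoter. Egfl7 had a further promoter, without a match. CTTTGT was found in 4 of the 15 (26.7%, in Apln, Eng, S1pr1 and Tie1), against 18.8% of all promoters. AGGAAG was found in 9 of the 15 (60.0%), against 34.5% of all promoters. Genes that rose and genes that fell were thus both among those with CTTTGT, and these matches are letters in a window, not measured binding.

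With lenti-TCF7L2 most of the set rose, but not all of it and not by a like amount. Of the 27 tested members, 24 were called higher than lenti-NC, against a background of 18.0% of all tested genes called higher. Esm1 and S1pr1 were called lower, where the background is 13.8%, and Cd34 was not called. The median difference over the 27 was 1.51, within a range from -0.83 for S1pr1 to 3.55 for Cldn5, and the median of all tested genes was 0.03. In 23 members all 3 lenti-TCF7L2 libraries lay above all 3 lenti-NC libraries (background 24.8%), in 2 they lay below (background 22.0%), and in Cd34 and Cd93 the groups overlapped. Cldn5 entered the test through its lenti-TCF7L2 counts alone. Without it 23 of 26 were higher and 2 lower, with a median of 1.51. Without lenti-TCF7L2 replicate 3 the same 26 gave 23 higher (background then 21.2%) and 2 lower (21.5%), with a median of 1.36.

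**Figure D1:**
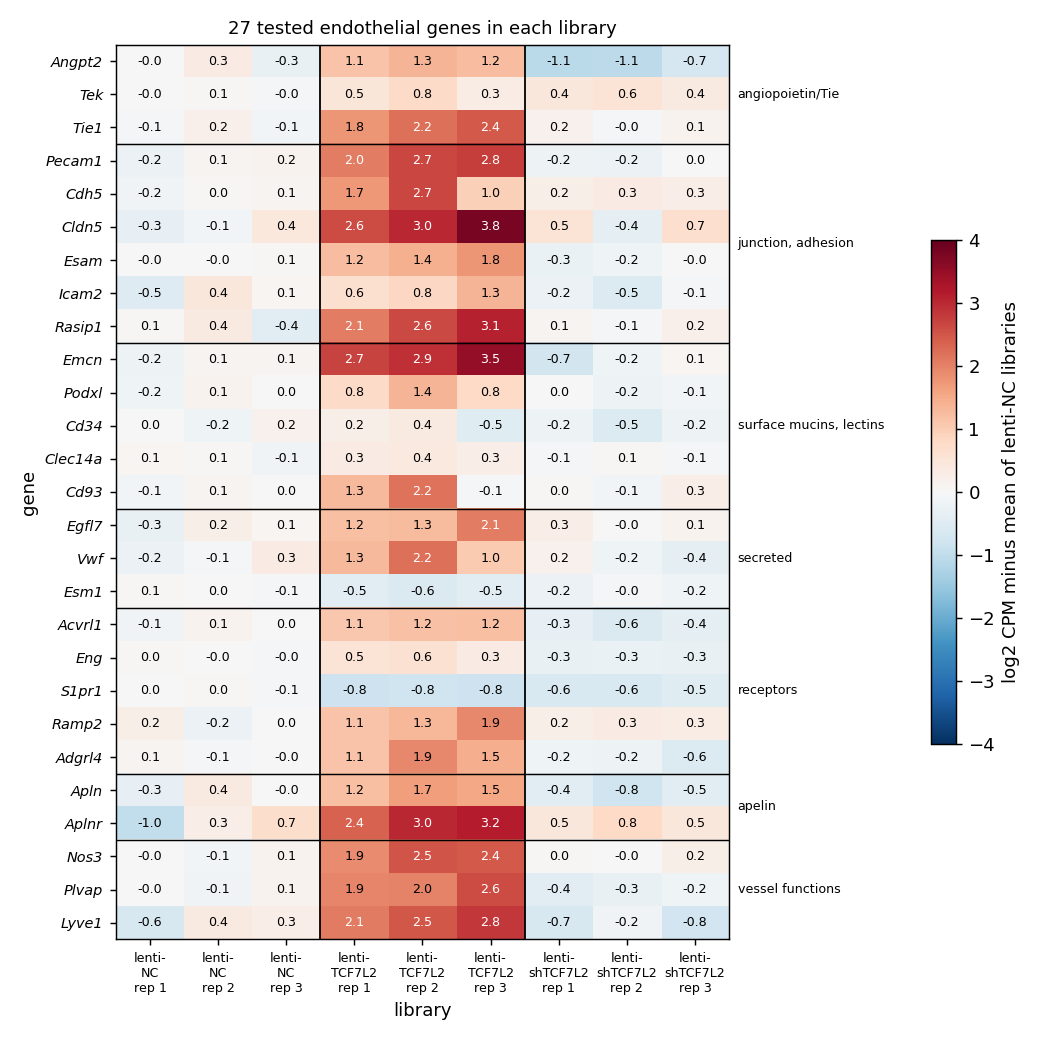
Heat map of log2 CPM minus the mean of the lenti-NC libraries for the 27 tested endothelial genes (rows, grouped by role) in each of the 9 libraries (columns). The lenti-TCF7L2 columns are mostly red, and their medians over the genes were 1.21, 1.66 and 1.47, while the lenti-shTCF7L2 medians were -0.17, -0.17 and -0.06; Esm1 and S1pr1 are blue in all 3 lenti-TCF7L2 libraries.

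Of the angiopoietin and Tie system, the member ligand Angpt2 and both receptors rose with lenti-TCF7L2. Angpt1, which encodes angiopoietin-1 and is not a member, was not called (0.11, adjusted p = 0.82). It stood at 33.7, 39.6 and 40.0 CPM in lenti-NC and 47.7, 57.8 and 17.3 in lenti-TCF7L2 libraries. Angpt2, a ligand that competes with angiopoietin-1 at the receptor Tie2, stood at 8.47, 10.8 and 7.08 CPM in lenti-NC, 19.1, 22.2 and 20.3 in lenti-TCF7L2 and 4.02, 4.11 and 5.44 in lenti-shTCF7L2 libraries. The 3 groups did not overlap, and Angpt2 and Acvrl1 were the members with a called rise under lenti-TCF7L2 and a called fall under lenti-shTCF7L2. It rose by 1.22 (SE 0.17, adjusted p = 9.38e-04) with lenti-TCF7L2 and fell by 0.96 (SE 0.18, adjusted p = 0.0235) with lenti-shTCF7L2. Tie1, an orphan receptor that modulates Tie2, stood at 5.65, 6.80 and 5.48 CPM in lenti-NC, 20.4, 27.6 and 32.9 in lenti-TCF7L2 and 6.73, 5.80 and 6.50 in lenti-shTCF7L2 libraries. All lenti-TCF7L2 libraries lay far above the other 6, and the difference was 2.17 (SE 0.18, adjusted p = 9.97e-05). Tek, which encodes Tie2 itself, stood at 6.66, 7.07 and 6.62 CPM in lenti-NC, 9.58, 11.5 and 8.36 in lenti-TCF7L2 and 9.24, 10.0 and 8.82 in lenti-shTCF7L2 libraries. Both TCF7L2 viruses thus gave Tek values above every control library. The rise with lenti-TCF7L2 was small (0.53, SE 0.13, adjusted p = 0.0163) and its call was lost in 3 of 16 other settings (adjusted p 0.00148 to 0.0603). The difference of 0.47 with lenti-shTCF7L2 did not pass (adjusted p = 0.110), and between the TCF7L2 viruses Tek differed by 0.07 (95% interval -0.23 to 0.36).

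Each of the 6 junction and adhesion genes rose with lenti-TCF7L2, with a median of 2.25. Pecam1 stood at 6.73, 8.55 and 8.89 CPM in lenti-NC, 33.5, 51.1 and 55.5 in lenti-TCF7L2 and 6.93, 6.84 and 8.16 in lenti-shTCF7L2 libraries. It rose by 2.54 (SE 0.20, adjusted p = 8.52e-05). Cdh5 stood at 6.19, 7.14 and 7.42 CPM in lenti-NC, 23.4, 44.7 and 13.6 in lenti-TCF7L2 and 8.05, 8.73 and 8.29 in lenti-shTCF7L2 libraries. Its lenti-TCF7L2 libraries differed among themselves more than those of Pecam1, with replicate 3 the lowest, and the rise was 1.97 (SE 0.37, adjusted p = 0.00400), or 2.28 without replicate 3. Esam, an immunoglobulin-like adhesion molecule of tight junctions, stood at 9.62, 9.63 and 10.2 CPM in lenti-NC, 23.1, 26.4 and 33.9 in lenti-TCF7L2 and 8.05, 8.60 and 9.75 in lenti-shTCF7L2 libraries. It rose by 1.50 (SE 0.15, adjusted p = 1.91e-04), and all lenti-TCF7L2 libraries lay above the other 6.

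Cldn5, the tight junction claudin of endothelium, rested on few counts: 4, 5 and 8 in lenti-NC, 46, 62 and 113 in lenti-TCF7L2 and 9, 4 and 10 in lenti-shTCF7L2 libraries. The rise of 3.55 (SE 0.45, adjusted p = 5.86e-04) therefore has a wide 95% interval, from 2.54 to 4.56. Rasip1, a Rap1 effector needed for vessel lumens, rose by 2.68 (SE 0.29, adjusted p = 3.10e-04). Icam2, a leukocyte ligand at endothelial junctions, rose by 0.94 (SE 0.27, adjusted p = 0.0287), a call lost in 4 of 16 other settings (adjusted p 0.0105 to 0.0899).

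Of the 5 surface sialomucins and C-type lectins, 4 rose and Cd34 did not pass. Emcn stood at 1.01, 1.28 and 1.27 CPM in lenti-NC, 8.38, 9.78 and 14.8 in lenti-TCF7L2 and 0.660, 1.04 and 1.26 in lenti-shTCF7L2 libraries. Its rise of 3.20 (SE 0.28, adjusted p = 1.11e-04), or 9.22-fold, was exceeded among the members by Cldn5 alone. Cd34, a sialomucin of capillary endothelium that fibroblast-like stromal cells also carry, stood at 11.0, 9.70 and 12.2 CPM in lenti-NC, 12.7, 14.2 and 7.76 in lenti-TCF7L2 and 9.57, 7.50 and 9.42 in lenti-shTCF7L2 libraries. Replicates 1 and 2 of lenti-TCF7L2 lay above the controls and replicate 3 below them. The Cd34 difference was 0.07 (95% interval -0.41 to 0.56, adjusted p = 0.814), and 0.28 without replicate 3 (adjusted p = 0.109; over all other settings 0.109 to 0.984). Podxl, podocalyxin, a relative of Cd34, rose by 1.01 (SE 0.17, adjusted p = 0.00257).

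Clec14a, a C-type lectin receptor of growing vessels, had the highest level per length of this group, at 34.8, 34.2 and 29.8 CPM in lenti-NC, 41.0, 42.9 and 39.6 in lenti-TCF7L2 and 31.5, 34.1 and 31.1 in lenti-shTCF7L2 libraries. All lenti-TCF7L2 libraries lay above the other 6, whose groups overlapped, but the rise was small (0.32, SE 0.09, adjusted p = 0.0217) and its call was lost in 4 of 16 other settings (adjusted p 0.00571 to 0.0871). Cd93, a related lectin, stood at 10.8, 12.6 and 11.8 CPM in lenti-NC, 28.8, 52.9 and 11.1 in lenti-TCF7L2 and 12.0, 10.8 and 14.0 in lenti-shTCF7L2 libraries. Replicate 3 of lenti-TCF7L2 lay within the control range while the other two lay well above it. The called rise of 1.40 (SE 0.45, adjusted p = 0.0412) was 1.78 without replicate 3 (adjusted p = 9.16e-06), and the call was lost in 12 of 16 other settings (adjusted p 9.16e-06 to 0.120).

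The 3 tested secreted proteins went separate ways. Esm1, endocan, a proteoglycan of activated endothelium and tip cells, stood at 52.8, 51.4 and 48.8 CPM in lenti-NC, 37.0, 34.1 and 37.0 in lenti-TCF7L2 and 43.4, 49.3 and 45.1 in lenti-shTCF7L2 libraries. All lenti-TCF7L2 libraries lay below the other 6, and Esm1 fell by 0.50 (SE 0.08, adjusted p = 0.00188). Egfl7, a matrix-bound protein secreted by endothelium, stood at 7.06, 10.4 and 9.29 CPM in lenti-NC, 20.5, 21.5 and 36.9 in lenti-TCF7L2 and 10.5, 8.73 and 9.69 in lenti-shTCF7L2 libraries. It rose by 1.56 (SE 0.24, adjusted p = 0.00162). Vwf, the von Willebrand factor of platelet adhesion, rose by 1.64 (SE 0.34, adjusted p = 0.00636) from a level of 0.207 ± 0.0473 FPKM (SD, n = 3) in the controls. The expected counts of Egfl7, Esm1, Aplnr, Nos3, Lyve1 and Robo4 were not whole numbers in every library, as happens when fragments are shared with another gene, so their values are less certain than the rest.

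Among the receptors, 4 of the 5 tested rose and S1pr1 fell. Eng, endoglin, the co-receptor of BMP9, had the highest level per length of the whole set, at 465, 449 and 437 CPM in lenti-NC, 653, 685 and 570 in lenti-TCF7L2 and 370, 377 and 366 in lenti-shTCF7L2 libraries. The 3 groups did not overlap. Eng rose by 0.50 (SE 0.08, adjusted p = 0.00170) with lenti-TCF7L2, and its difference of -0.28 with lenti-shTCF7L2 did not pass (adjusted p = 0.0998), though it was called in 4 of 16 other settings (adjusted p 1.56e-05 to 0.295). Acvrl1, its signalling partner ALK1, stood at 70.1, 85.2 and 78.6 CPM in lenti-NC, 163, 176 and 181 in lenti-TCF7L2 and 62.3, 52.3 and 58.7 in lenti-shTCF7L2 libraries. It rose by 1.15 (SE 0.10, adjusted p = 9.96e-05) with lenti-TCF7L2, more than Eng, and like Eng its groups were ordered with lenti-NC in the middle.

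S1pr1, the sphingosine-1-phosphate receptor that steadies endothelial junctions, stood at 115, 117 and 110 CPM in lenti-NC, 63.6, 65.3 and 64.0 in lenti-TCF7L2 and 73.9, 74.4 and 81.7 in lenti-shTCF7L2 libraries. Both viruses gave values below every control library, and lenti-TCF7L2 the lowest. S1pr1 fell by 0.83 (SE 0.07, adjusted p = 8.63e-05) with lenti-TCF7L2. Ramp2, the accessory protein that makes the calcitonin receptor-like receptor respond to adrenomedullin, rose by 1.51 (SE 0.21, adjusted p = 9.63e-04). Adgrl4, an orphan adhesion receptor of endothelium, rose by 1.62 (SE 0.24, adjusted p = 0.00132). Robo4, a receptor that restrains vessel leak, was not tested: expected counts of 2.75, 0.24 and 0 were listed in lenti-NC, 22.8, 68.9 and 0 in lenti-TCF7L2, and 0 in each lenti-shTCF7L2 library. The value for replicate 3 of lenti-TCF7L2 was thus listed at 0 where the other two were the highest of the 9, and with counts that are not whole a 0 may be an estimate rather than an absence of fragments.

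Ligand and receptor of the apelin system rose together. Apln, the peptide ligand of endothelial tip cells, stood at 9.08, 14.8 and 11.2 CPM in lenti-NC, 26.5, 36.5 and 33.4 in lenti-TCF7L2 and 8.58, 6.52 and 8.29 in lenti-shTCF7L2 libraries. Aplnr, its G-protein-coupled receptor, stood at 0.404, 1.15 and 1.60 CPM in lenti-NC, 5.29, 8.32 and 9.26 in lenti-TCF7L2 and 1.32, 1.69 and 1.33 in lenti-shTCF7L2 libraries. All lenti-TCF7L2 libraries lay above the other 6 for both genes. Apln rose by 1.46 (SE 0.20, adjusted p = 8.32e-04) and Aplnr by 2.85 (SE 0.37, adjusted p = 6.81e-04).

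The 3 tested genes of vessel function rose by similar amounts. Nos3, the endothelial nitric oxide synthase, stood at 4.30, 4.04 and 4.81 CPM in lenti-NC, 16.5, 25.5 and 24.4 in lenti-TCF7L2 and 4.49, 4.30 and 5.18 in lenti-shTCF7L2 libraries. Its lenti-TCF7L2 libraries lay far above the other 6, a rise of 2.33 (SE 0.18, adjusted p = 7.64e-05). Plvap, which forms the diaphragms of capillary openings, stood at 3.56, 3.30 and 4.01 CPM in lenti-NC, 14.3, 14.8 and 22.6 in lenti-TCF7L2 and 2.64, 2.93 and 3.19 in lenti-shTCF7L2 libraries. It rose by 2.25 (SE 0.20, adjusted p = 1.18e-04). Lyve1, a hyaluronan receptor of lymphatic endothelium that tissue macrophages also carry, rose by 2.53 (SE 0.30, adjusted p = 4.03e-04). Gpihbp1, the capillary anchor of lipoprotein lipase, was not tested: its counts were 2, 0 and 0 in lenti-NC, 7, 12 and 19 in lenti-TCF7L2 and 0, 1 and 0 in lenti-shTCF7L2 libraries.

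With lenti-shTCF7L2 few members moved. No member was called higher in edgeR (0 of 27, background 1.32%). At an unadjusted p under 0.05, 1 was higher (849 of all 11761 genes), and 0 were called higher in DESeq2 (216 of all). Angpt2, Acvrl1 and S1pr1 were called lower (background 2.32%). At an unadjusted p under 0.05, 5 were lower (1040 of all 11761 genes), and 4 were called lower in DESeq2 (435 of all). The median difference over the 27 was -0.14, within a range from -0.96 to 0.47. All 3 lenti-shTCF7L2 libraries lay above the controls in 3 members (background 19.9%), below them in 8 (background 21.0%), and overlapped them in 16. S1pr1 fell by 0.57 (SE 0.07, adjusted p = 0.00332), a call kept in all 16 other settings run. The call for Angpt2 was lost in 6 of them (adjusted p 1.04e-04 to 0.126). Acvrl1 fell by 0.43 (SE 0.10, adjusted p = 0.0450), a call lost in 11 of the 16 (adjusted p 4.08e-05 to 0.213). The number called lower was 1 when lenti-NC replicate 1 or 2 or any lenti-shTCF7L2 library was left out (66 to 125 of all tested genes). It was 5 without lenti-TCF7L2 replicate 3, where 1286 of all 11820 genes were lower. None of the 3 defining markers passed: Pecam1 differed by -0.14 (95% interval -0.61 to 0.33), Cdh5 by 0.27 (-0.58 to 1.13) and Emcn by -0.26 (-1.08 to 0.55). The spread of each gene was estimated over all 9 libraries, so these intervals also carry the spread within lenti-TCF7L2. For Cdh5 all 3 lenti-shTCF7L2 libraries lay above all 3 controls, though no call was made in 16 other settings (adjusted p 0.0978 to 0.96).

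**Figure D2:**
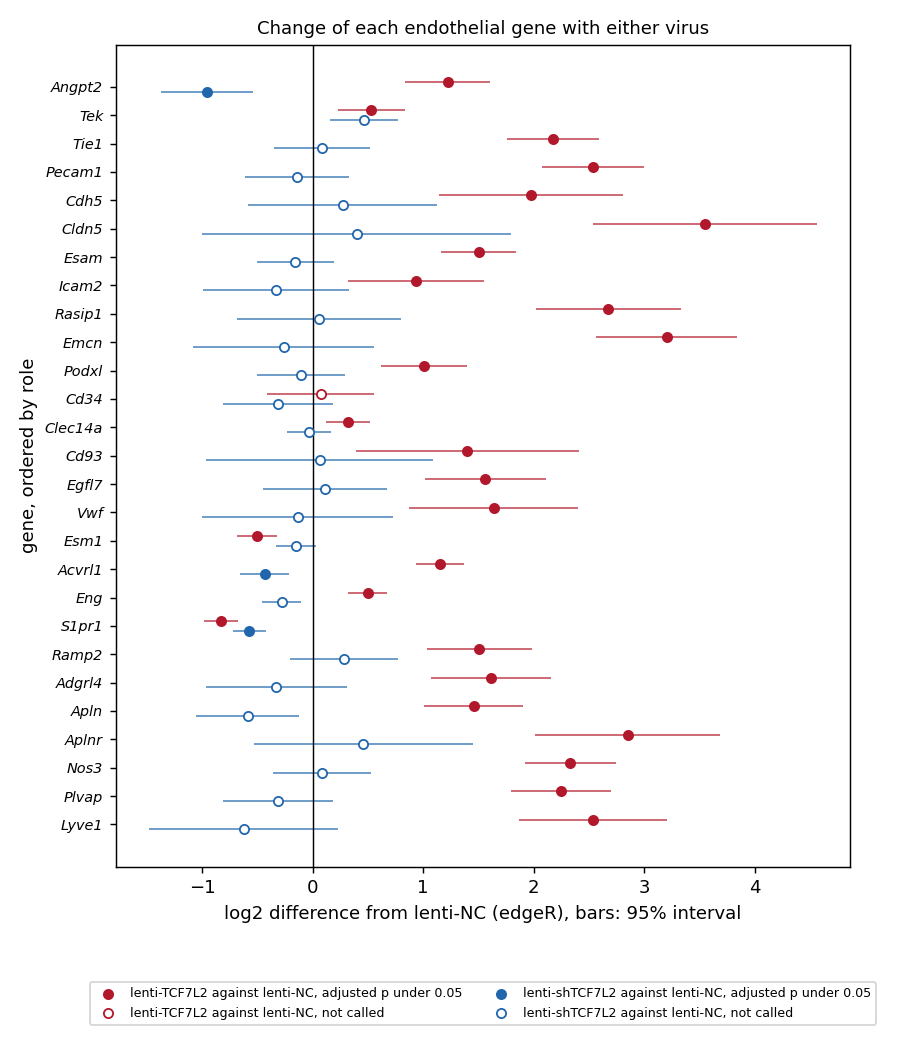
Log2 difference from lenti-NC (horizontal axis, bars 95% intervals from edgeR, n = 3 libraries per group) for each of the 27 tested genes, with lenti-TCF7L2 in red and lenti-shTCF7L2 in blue; filled points passed an adjusted p of 0.05. Red points run from -0.83 to 3.55, while blue points stay between -0.96 and 0.47 and only Angpt2, Acvrl1 and S1pr1 are filled.

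Both comparisons share the lenti-NC libraries, so the TCF7L2 viruses were also compared with each other. In lenti-TCF7L2 against lenti-shTCF7L2, 23 of the 27 were called higher (background 18.4%) and 2 lower (background 14.7%), with a median of 1.70. Without Cldn5, which entered the test through its lenti-TCF7L2 counts alone, 22 of 26 were higher and 2 lower, with a median of 1.68. Angpt2 differed by 2.18 (SE 0.18, adjusted p = 5.27e-05) and Acvrl1 by 1.59 (SE 0.10, adjusted p = 2.04e-05). S1pr1 and Esm1 were the members called lower here too, with differences of -0.25 (SE 0.07, adjusted p = 0.0182) and -0.35 (SE 0.08, adjusted p = 0.00942). The call for S1pr1 was lost in 2 of 16 other settings (adjusted p 0.00745 to 0.0671). Tek and Cd34 were not called. Cd34 differed by 0.39 (adjusted p = 0.201), or by 0.61 without lenti-TCF7L2 replicate 3 (adjusted p = 0.00230).

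Whether the members rose alike was tested by scaling each library to its summed counts of Pecam1, Cdh5 and Emcn in place of its total. These sums were 207, 252 and 263 in lenti-NC, 1037, 1662 and 1405 in lenti-TCF7L2 and 237, 255 and 267 in lenti-shTCF7L2 libraries. A gene that followed the marker sum would lie at 0 on this scale. The markers themselves lay at 0.15 (Pecam1), -0.45 (Cdh5) and 0.85 (Emcn), so 0 is not the change of each marker. Since the markers themselves rose, 98.9% of all tested genes were called lower and 0.0850% higher on it. Of the 24 other tested members, 17 were called lower, 1 higher and 6 not called, with a median of -0.89. The member called higher was Cldn5 (1.20, SE 0.46, adjusted p = 0.00930), which entered the test through its lenti-TCF7L2 counts alone and no longer passed without lenti-TCF7L2 replicate 3 (0.78, adjusted p = 0.10). Leaving Cldn5 aside, edgeR called 17 of 23 lower and 0 higher (also 0 higher at an unadjusted p under 0.05), with a median of -0.91.

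The members that were not called relative to the markers were Aplnr (0.49, 95% interval -0.21 to 1.20), Rasip1 (0.28, -0.32 to 0.88), Lyve1 (0.18, -0.49 to 0.86), Nos3 (-0.06, -0.62 to 0.50), Plvap (-0.11, -0.68 to 0.46) and Tie1 (-0.21, -0.76 to 0.33). Their intervals span more than a log2 unit, so equal change is not shown. At the other end S1pr1 differed by -3.19 (SE 0.27), Esm1 by -2.85 (SE 0.28) and Cd34 by -2.29 (SE 0.28) relative to the markers. Clec14a (-2.04), Eng (-1.86) and Tek (-1.84) also lagged far behind. S1pr1, Esm1, Cd34, Clec14a, Eng and Tek differed from the marker sum by more than the sums varied within a group. The marker sum is shared by all genes, but the test takes its spread as measured separately in each. Adjusted p-values, calls and intervals on this scale are therefore too certain, which matters most for the smaller differences. When the counts of all members were summed in place of the 3 markers, a sum that is mostly Eng, 15 of the 24, Cldn5 among them, were higher (background 2.33%) and 4 lower (background 70.2%).

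**Figure D3:**
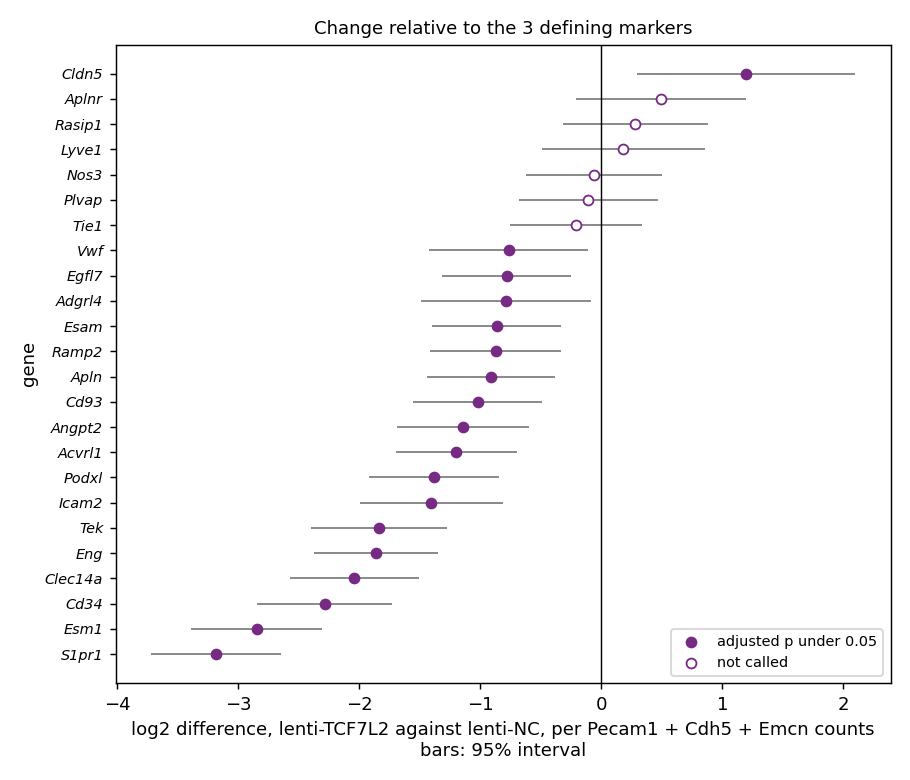
Log2 difference between lenti-TCF7L2 and lenti-NC (n = 3 libraries each) after scaling each library to its summed Pecam1, Cdh5 and Emcn counts, for the 24 other tested members, with 95% intervals. Points run from -3.19 for S1pr1 to 1.20 for Cldn5, 17 of them filled and below 0, and open points are members that were not called.

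The members also differed in level per gene length. In FPKM (fragments relative to gene length and library size), Eng stood highest in the controls at 150 ± 4.82 (SD, n = 3), followed by S1pr1 at 42.9 ± 1.35, Esm1 at 23.1 ± 0.945 and Acvrl1 at 21.4 ± 2.07. Esm1 and Acvrl1 lay within their summed SDs of each other. Pecam1 stood at 2.42 ± 0.348 FPKM, Cdh5 at 2.65 ± 0.246 and Emcn at 0.823 ± 0.107, all below the leading 4. Members with higher levels tended to rise less. The like relation over all tested genes was not computed, so it is not shown to be particular to this set. To keep the controls out of both axes, the level was taken from lenti-shTCF7L2: across the 27 genes Spearman's rho between that FPKM and the log2 difference of lenti-TCF7L2 from lenti-NC was -0.744, a description across genes from the same cultures with no test, and -0.731 over the 26 genes without Cldn5. The 8 members at 5 FPKM or more, a limit chosen after the values were seen, ran from -0.83 to 1.56 with a median of 0.41. The 19 members under it ran from 0.53 to 3.55 with a median of 1.97, or, without Cldn5, 18 members from 0.53 to 3.20 with a median of 1.81.

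**Figure D4:**
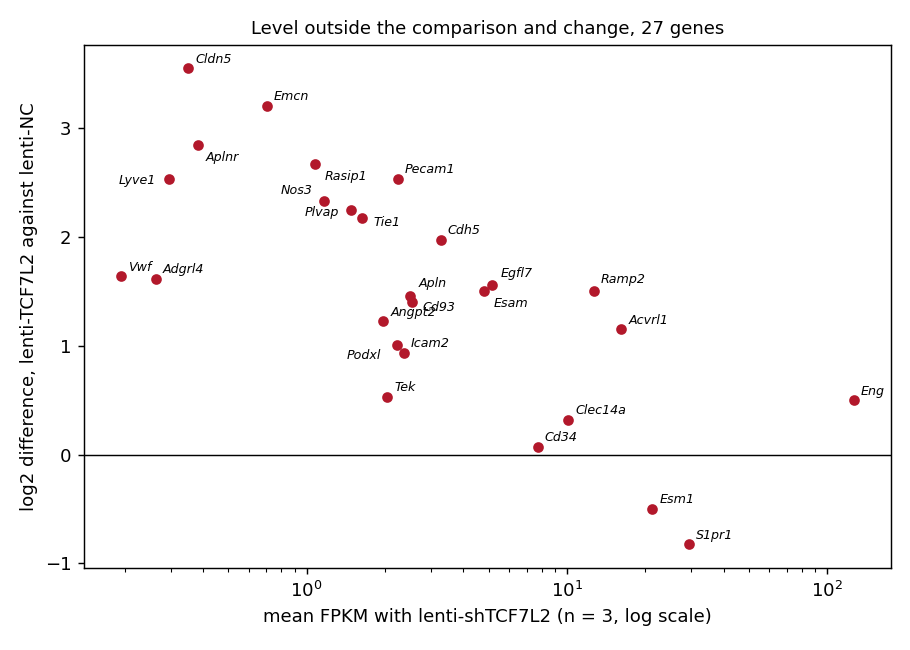
Mean FPKM with lenti-shTCF7L2 (horizontal, log scale, n = 3 libraries) against the log2 difference of lenti-TCF7L2 from lenti-NC (vertical) for the 27 tested genes, 1 point per gene. Cldn5 and Emcn lie at the upper left, Eng, Esm1 and S1pr1 at the lower right, and rho was -0.744.

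Replicate 3 of lenti-TCF7L2 moved some members up and others down. Against the mean of replicates 1 and 2, its log2 CPM was lower for Cd93 (-1.81), Cdh5 (-1.25), Cd34 (-0.78) and Vwf (-0.71), and higher for Cldn5 (0.97), Egfl7 (0.81), Rasip1 (0.73) and Emcn (0.70). The median over the 27 members was 0.10. Across the members this difference went with gene length (Spearman's rho -0.526, n = 27), and across all 11761 tested genes rho was -0.534, so a like tilt ran through the whole library. Short genes such as Ramp2 were higher in this library and long ones such as Vwf lower, and Cd34, Cdh5 and Cd93 lay below the others of their length. The part of this library's tilt in the results was not tested beyond leaving it out.

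**Figure D5:**
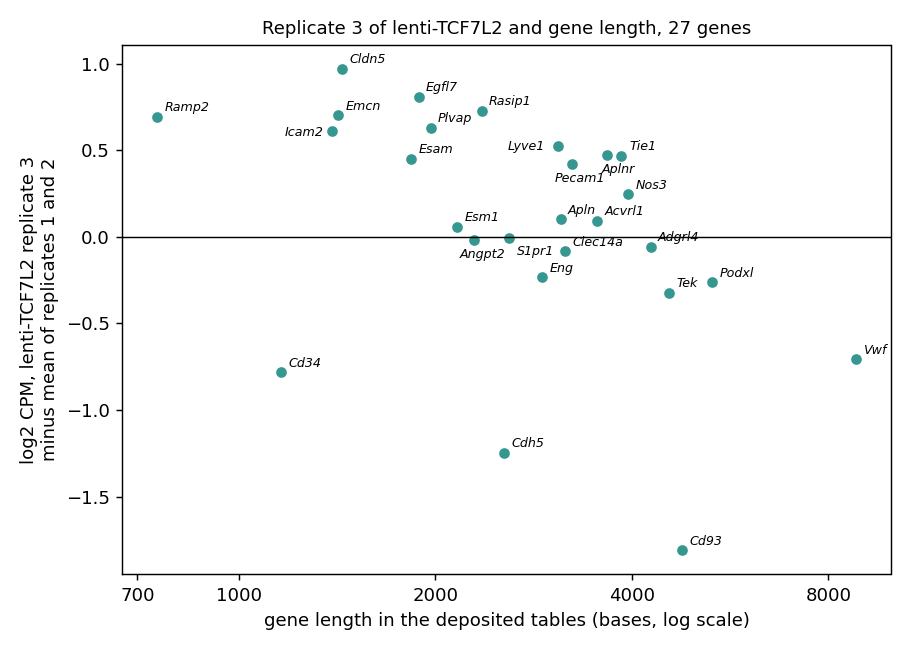
Gene length in the deposited tables (horizontal, bases, log scale) against log2 CPM of lenti-TCF7L2 replicate 3 minus the mean of replicates 1 and 2 (vertical), 1 point for each of the 27 tested genes. Points fall with length (rho -0.526), from 0.97 for Cldn5 to -1.81 for Cd93.

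Other endothelial genes from a list of 51, 44 of them tested, were mixed. With lenti-TCF7L2 21 rose (background 18.0%) and 4 fell (background 13.8%), with a median of 0.41. Among those that rose, Lyl1 (1.73, adjusted p = 0.00664) and Sele (1.85, adjusted p = 0.00363) entered the test through their lenti-TCF7L2 counts alone. Selp, the adhesion receptor P-selectin, rose by 1.32 (adjusted p = 9.17e-05), Sparcl1, a matrix protein, by 2.45 (adjusted p = 1.09e-04) and Dll4, the Notch ligand of arterial and tip cells, by 3.53 (adjusted p = 1.28e-04). The 4 that fell, named after their values were seen, were Flt4, Jam2, Cgnl1 and Tm4sf1, with differences of -1.01 to -0.60. With lenti-shTCF7L2, 1 of the 44 rose (background 1.32%) and 2 fell (background 2.32%). Of 8 tested lymphatic and endocardial markers 3 rose, of which Pdpn had the smallest adjusted p (0.82, adjusted p = 2.35e-04). Flt4 and Prox1, the lymphatic regulator (-1.68, adjusted p = 0.0341), were the 2 that fell. Counts in lenti-TCF7L2 replicates 1 to 3 were 156, 221 and 29 for Prox1 and 761, 997 and 400 for Flt4. Their differences without replicate 3 are not given, and which cells made their RNA was not measured.

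Markers of other cells were counted in the same comparison, where 18.0% of all tested genes were called higher and 13.8% lower. Of 13 tested cardiomyocyte markers 12 fell with lenti-TCF7L2, among them the myosin gene Myh6 (-1.45, adjusted p = 2.41e-05). The summed level of the 13 listed cardiomyocyte markers was 62030 to 63280 CPM with lenti-NC, 27330 to 35180 with lenti-TCF7L2 and 57760 to 59100 with lenti-shTCF7L2. Of 12 fibroblast markers 6 rose and 1 fell with lenti-TCF7L2. Their summed levels were 54530 to 56050 CPM in the controls and 60310, 66700 and 48310 in lenti-TCF7L2 replicates 1 to 3. With lenti-shTCF7L2, 5 of the 12 fell (background 2.32%), among them the fibroblast regulator Tcf21 (-1.01, adjusted p = 0.00141) and the matrix proteoglycan Dcn (-0.94, adjusted p = 0.00380). Of these, Dcn, Tcf21, Lum and Mfap5 were called higher with lenti-TCF7L2 (0.90, 0.49, 0.98 and 0.67), and Dpt was not called there (-0.02). With lenti-shTCF7L2 edgeR called 0 higher (background 1.32%). At an unadjusted p under 0.05, 1 was higher and 7 lower (849 and 1040 of all 11761 genes). The summed level was 53720 to 56170 CPM. The part of fibroblast markers in the falls of Angpt2, Acvrl1 and S1pr1 was not tested. Of 9 tested macrophage and leukocyte markers 6 rose, and the sum of the 14 listed was 41.1 to 43.9 CPM with lenti-NC, 77.2 to 86.4 with lenti-TCF7L2 and 39.5 to 42.6 with lenti-shTCF7L2. Those that rose were Cd68 (1.17, adjusted p = 3.74e-04), Cd14 (0.82, adjusted p = 3.15e-04), Fcer1g (1.43, adjusted p = 1.37e-04), Tyrobp, Fcgr1a and Csf1r, while Ptprc, Mrc1 and Adgre1 were not called. Cd68, a lysosomal protein abundant in macrophages, had 132 to 158 counts in lenti-NC and 321 to 420 in lenti-TCF7L2 libraries. The untested members of this list were the complement genes C1qa, C1qb and C1qc and the scavenger receptor Cd163, each with 0 to 4 counts in every library, and Aif1, with 0 to 10. Smooth muscle and pericyte markers gave 2 higher and 1 lower of 12, not above the shares of all tested genes, with a median of -0.07. Epicardial and mesothelial markers gave 3 and 1 of 9 and Schwann markers 1 higher of 4. From the erythroid and megakaryocyte markers 1, Pf4, was tested and rose by 1.63. The part of these other cell types, and of the fall in cardiomyocyte RNA, in the rise of the endothelial genes was not tested. Nor was their part in the falls of S1pr1 and Esm1 tested. Which cells made the RNA of each member was not measured.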

How the data were processed

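Messenger RNA was analysed in 9 libraries, 3 per group by their titles. The authors deposited, per the file headers, 1 table per library with expected counts (estimated fragments per gene, not normalised), FPKM values and gene lengths. The submitters' processing notes name HISAT2, Bowtie2, RSEM 1.3.1, DESeq2 1.4.5 and build rn6, with no roles. Genes absent from a table were set to 0, and members were matched by symbol.

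Expected counts were rounded and filtered with filterByExpr (minimum count 10), which kept 11761 genes and set aside 2846. edgeR 4.0.16 in R 4.3.3 fitted all 9 libraries with TMM scaling and group as the only term (quasi-likelihood test, 2-sided, Benjamini-Hochberg over all tested genes, threshold 0.05). The biological coefficient of variation was 14.9%. Scaling to the summed counts of Pecam1, Cdh5 and Emcn replaced TMM in 1 further fit. Log2 CPM per library used a prior count of 2. The procedure was tested on simulated data. No 2 replicates agreed within sampling noise.

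The members, gene lists and tests were chosen with earlier results of these data known. Members given library by library were the 3 markers, and in each role group the one with the highest FPKM, the one with the smallest adjusted p, and each called lower or not called with lenti-TCF7L2; Tek, Cdh5, Cldn5, Cd93, Robo4 and Gpihbp1 were added after values were seen. From other lists up to 3 genes with the smallest adjusted p were named. Alternatives were RLE scaling, DESeq2 1.42.0, no filter, limma 3.58.1 on log2(FPKM + 1) or log2(FPKM + 0.1) for genes with a mean FPKM of at least 1, a replicate block, only the 6 libraries compared, each library left out, and the sum of all members in place of the markers. Positions are from RefSeq promoters of GRCr8 and were not compared with rn6.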

Additional observations from a re-analysis of the deposited data

How the results depend on the processing

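Counts of members higher or lower with lenti-TCF7L2 than with lenti-NC stayed within 1.5 times of the values given in every alternative run. Of the 26 members called there, 22 kept their call in each alternative that tested them, and Cd93, Icam2, Clec14a and Tek lost it in some. Replicate numbers did not pair the libraries (residual correlations of same-numbered libraries -0.067 to 0.151, 2 of 9 over 0.1). With a replicate block 1 member was lower in lenti-shTCF7L2 against lenti-NC, in place of 3 (163 of all 11761 genes were lower). In that comparison, fitting only the 6 libraries compared gave 1 higher and 5 lower, where 1507 and 1787 of all 11553 genes were called. Leaving out 1 library gave 0 to 1 higher and 1 to 5 lower, with 19 to 770 and 66 to 1286 of all tested genes called. Between the TCF7L2 viruses, fitting 6 libraries gave 1 lower (1087 of all 11669 genes), and leaving out 1 library 1 to 2 lower (1190 to 2721 of all tested genes). There the median of 1.70 was 1.40 in limma on log2(FPKM + 1), whose pseudocount shrinks low genes. It was 1.56 to 1.95 with 1 library left out. Relative to the markers, no filter gave 2 higher, leaving out 1 library 1 to 3 higher and 16 to 17 lower, and the sum of all members 15 higher and 4 lower. With that sum Tie1 lay at 1.50, Nos3 at 1.66 and Plvap at 1.59. With 1 library left out, Rasip1 ran from -0.0016 to 0.43, Nos3 from -0.15 to 0.0302, Plvap from -0.34 to 0.12 and Lyve1 from -0.0171 to 0.35 relative to the markers. Cd34 ran from -0.12 to 0.28 against lenti-NC, and Tek from -0.0771 to 0.17 between the TCF7L2 viruses. The cause of these shifts was not tested. Low counts limit Cldn5, Emcn, Aplnr, Lyve1, Robo4 and Gpihbp1 most.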
